A study of Mus musculus with 12 samples.

Results

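Dmtf1 and 9 genes that promote or oppose cell cycle arrest were followed in 12 single tendon cells of the mouse. The 9 were Cdkn2a, Mdm2, Trp53, Cdkn1a, Cdkn1b, Cdkn1c, Ccnd1, Ccnd2 and Rb1, of which Mdm2, Ccnd1 and Ccnd2 oppose arrest. The aim was to see whether Dmtf1 was found together with the arrest genes. All were taken by name, 10 of the 55418 genes in the count table. Dmtf1 was chosen with its counts in these cells known, so its pattern between the genotypes is described and supports nothing, and no genotypes were compared by a test. The cells were 6 Tnmd-/- ScxGFP+ and 6 WT ScxGFP+ cells from uninjured Achilles tendons of untreated mice on a C57BL/6 background. The Tnmd-/- animals lack tenomodulin, a membrane protein of mature tendon cells, in every cell of the body, and all animals carry a green fluorescent reporter under the control of Scleraxis, the transcription factor of the tendon lineage. Because Tnmd is X-linked, heterozygous females were counted as WT in the study. The age of the animals was not given for these cells. Tendons were digested with collagenase for 8 hours, single fluorescent cells were picked by micromanipulator, and their RNA was amplified with the Smart-Seq2 protocol, which reads whole transcripts and carries no molecular identifiers. The labels do not say which animal a cell came from, so each genotype was taken as 1 sample and the cells as parts of it. Intervals are therefore 95% Poisson or Clopper-Pearson intervals, which cover counting error only, and each gene is described cell by cell.

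Dmtf1 encodes a Myb-like transcription factor, also known as Dmp1, which binds the promoter of Arf, a protein encoded by the Cdkn2a locus. Arf holds back Mdm2, the ubiquitin ligase that marks p53 for breakdown, so that p53 accumulates and switches on Cdkn1a, the gene of the cyclin-dependent kinase inhibitor p21. D-type cyclins drive the opposite step, in which their kinases phosphorylate Rb, the brake on entry into S phase, and cyclin D binds Dmtf1 as well.

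Promoters of 6 of the 10 genes were found in RefSeq (GRCm38.p6), 8 promoters in all, each from 250 bases before to 50 bases after a transcript start. They are shown here for the steps of this pathway that run through DNA binding. The core of the Dmtf1 site, CCCGNATG, was searched on both strands. It was present in 1.63% of 32851 promoters, and in 2 of the 8. These were the upstream promoter of Cdkn2a, from which Arf is transcribed (chr4:89294570-89294869, minus strand, core 151 bases before the start), and the Mdm2 promoter (chr10:117710709-117711008, minus strand, core 24 bases before the start). A p53 response element of 20 letters, searched with up to 1 mismatch outside its fixed C and G positions, was present in 0.0670% of promoters. Among the 8 it lay in the upstream promoter of Cdkn1a (chr17:29090729-29091028, plus strand), where it began 51 bases before the start. Capitals mark the Dmtf1 core in the Arf and Mdm2 promoters and the p53 element in the Cdkn1a promoter. The longer form of the core, CCCGNATGT, was present in 0.393% of promoters, and neither marked core is followed by its last T. The shortened core and the mismatch were allowed after the promoters had been seen, and a match describes the letters, not binding in these cells.

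Arf promoter of Cdkn2a: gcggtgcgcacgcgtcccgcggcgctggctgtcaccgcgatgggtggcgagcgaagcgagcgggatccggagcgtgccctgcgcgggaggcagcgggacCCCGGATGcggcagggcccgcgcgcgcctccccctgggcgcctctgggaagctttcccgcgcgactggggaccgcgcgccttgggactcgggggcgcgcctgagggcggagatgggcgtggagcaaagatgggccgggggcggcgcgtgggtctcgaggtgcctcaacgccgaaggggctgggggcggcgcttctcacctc

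Mdm2 promoter: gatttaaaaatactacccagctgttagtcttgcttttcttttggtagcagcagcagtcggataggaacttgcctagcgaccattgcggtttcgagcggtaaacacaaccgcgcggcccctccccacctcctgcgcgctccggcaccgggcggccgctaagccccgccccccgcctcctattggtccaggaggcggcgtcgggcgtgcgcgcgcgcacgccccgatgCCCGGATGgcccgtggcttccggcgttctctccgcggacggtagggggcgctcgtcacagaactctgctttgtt

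Upstream promoter of Cdkn1a: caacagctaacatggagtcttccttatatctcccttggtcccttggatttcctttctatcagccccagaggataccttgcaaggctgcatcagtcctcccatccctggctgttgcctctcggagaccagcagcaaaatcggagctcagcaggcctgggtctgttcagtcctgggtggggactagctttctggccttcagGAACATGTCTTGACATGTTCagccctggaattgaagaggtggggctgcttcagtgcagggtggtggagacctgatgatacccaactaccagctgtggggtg

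The cells held between 892713 and 10333351 counts in the Tnmd-/- genotype and between 4516036 and 13613080 in the WT genotype, with sums of 35088506 and 53439236. Tnmd-/- cell 3 stood apart, with 51.8% of its counts on mitochondrial genes against 1.75% to 7.30% in the other cells. The annotation of the study's heat map marks Tnmd-/- cells 9, 10 and 20 and WT cells 4, 5 and 10 as less degraded and the other 3 cells of each genotype as more degraded, and the deeper cells are the less degraded ones. Tnmd itself, the deleted gene, gave 8 counts in the knockout and 10185 in WT cells, 99.9% of the latter in WT cell 14, so that for the other 5 WT cells this gene gave no check of the genotype. Scx had 3 and 2074 counts. Markers of tendon fibroblasts were present in every cell, 10 of 10 markers with counts and a summed level, in counts per 1000000 of the cell's total (CPM), of 1684 to 87463 for the knockout and 30395 to 176923 for WT. Of the markers of other cell types, 2 of 5 endothelial, 1 of 6 immune, 1 of 5 mural, 2 of 4 glial and 2 of 5 skeletal muscle genes had any count, and Cdh5, Ptprc, Csf1r, Acta2 and Rgs5 were at 0 throughout. The highest summed level of such a list was 118 CPM in a Tnmd-/- cell and 641 CPM in a WT cell, in each case from the mural marker Cspg4, and red blood cell genes had none.

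The 10 genes fell into 3 patterns. Cdkn1a was read in every cell, Dmtf1 in all Tnmd-/- cells and a single WT cell, and the other 8 in some cells of either genotype or in none. Between 3 and 6 of the genes reached 10 counts in a Tnmd-/- cell (median 5) and between 2 and 5 in a WT cell (median 3.5). After random thinning of each cell to 892713 counts, which is the depth of the shallowest, the medians were 4 and 2.5. Both tallies include Dmtf1, which was chosen with its counts known. Before thinning it gave 6 of 28 readings in Tnmd-/- cells and 1 of 21 in WT cells. A sum of at least 20 counts was reached by 9 of the genes, of which 4 were at least 2-fold higher in the pooled Tnmd-/- cells, 2 at least 2-fold lower and 3 in between. Of all 9768 genes with such a sum, 35.5% were at least 2-fold higher and 34.9% at least 2-fold lower. The CPM of the 6 Tnmd-/- and the 6 WT cells overlapped for each of the 9 genes, and failed to overlap for 0.0410% of all 9768. The median log2 ratio (Tnmd-/- over WT, with 1 CPM added) was 0.87 for the 9 genes and 0.062 for all 9768. The median of the 9 was the value of Dmtf1 itself, chosen with its counts known, so it shows no shift of the other genes.

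**Figure D1:**
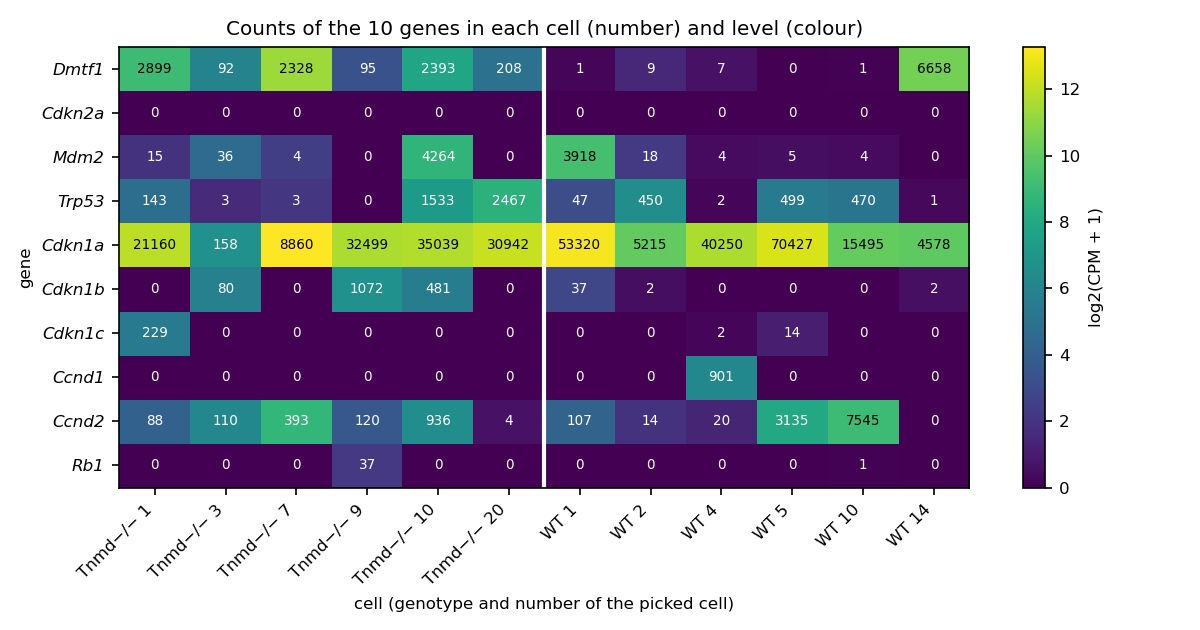
Counts (numbers) and log2(CPM + 1) (colour) of the 10 genes (rows) in the 6 Tnmd-/- and 6 WT cells (columns, separated by the white line). Cdkn1a is read in all 12 cells, from 158 counts in Tnmd-/- cell 3 to 70427 in WT cell 5, while the Dmtf1 row is filled in the Tnmd-/- cells and in WT cell 14, and Cdkn2a is empty.

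Dmtf1 (ENSMUSG00000042508, chromosome 5 of GRCm38, 9118801 to 9161776, minus strand) had 2899, 92, 2328, 95, 2393 and 208 counts in Tnmd-/- cells 1, 3, 7, 9, 10 and 20, which is 546, 61.1, 2608, 9.19, 232 and 30.8 CPM. In WT cells 1, 2, 4, 5, 10 and 14 it had 1, 9, 7, 0, 1 and 6658 counts, or 0.167, 1.87, 0.561, 0, 0.0735 and 1474 CPM. Thus 5 of the 6 WT cells lay below the lowest Tnmd-/- cell, and the 6th, cell 14, lay above all Tnmd-/- cells but cell 7. Among 10123 genes that reached 10 counts in any cell, Dmtf1 was the only one (0.00988%) with 10 counts in all 6 Tnmd-/- cells and in at most 1 WT cell, the pattern for which it was chosen. After thinning, Tnmd-/- cell 9 fell to 7 counts, and 5 Tnmd-/- cells and 1 WT cell held 10 or more.

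The WT counts came almost entirely (99.7%) from cell 14, and the pooled level therefore hid this difference. It was 228 CPM for Tnmd-/- and 125 CPM for WT, a log2 ratio of 0.87 (0.82 to 0.92). Without WT cell 14 the ratio was 9.28, and without Tnmd-/- cell 7 it was 0.41. Within the less degraded cells, which do not include WT cell 14, it was 8.87, and within the more degraded cells 0.67. Among the Tnmd-/- cells the level itself varied from 9.19 CPM in cell 9 to 2608 CPM in cell 7, and the 3 more degraded cells held 61.1 CPM or more. Dmtf1 shares 3.66% of its exon bases with Tmem243 on the opposite strand, which had 0 counts in all cells.

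**Figure D2:**
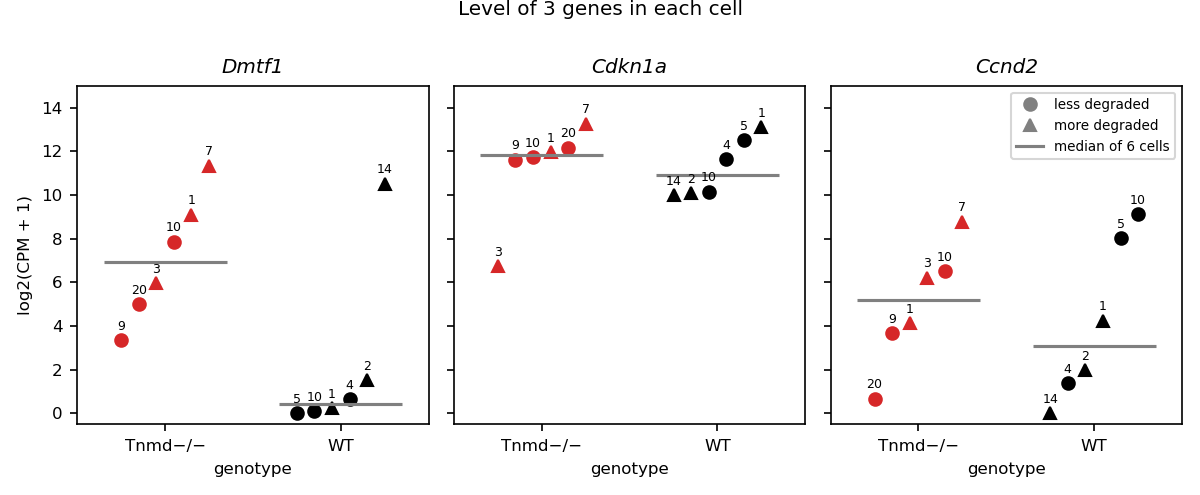
Levels of Dmtf1, Cdkn1a and Ccnd2 in each cell as log2(CPM + 1), by genotype. Numbers name the cells, circles are less degraded and triangles more degraded cells, and gray lines are the medians of 6 cells. For Dmtf1, 5 WT cells lie below all Tnmd-/- cells and WT cell 14 lies among the highest. The genotypes overlap for Cdkn1a and Ccnd2, though for Cdkn1a WT cells 2, 10 and 14 lie below all Tnmd-/- cells but cell 3.

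Cdkn2a (ENSMUSG00000044303, chromosome 4, 89274471 to 89294653, minus strand), which encodes Arf and the kinase inhibitor p16 from exons that are partly shared, had 0 counts in all 12 cells. With a floor of 3 counts per genotype, this allows a pooled level of up to 0.0855 CPM for Tnmd-/- and 0.0561 CPM for WT. It was thus not detectable, neither in the cells rich in Dmtf1 counts nor in those with few or none. Mdm2 (ENSMUSG00000020184, chromosome 10, 117688875 to 117710758, minus strand), which lies below Arf in the pathway and is itself a target of p53, had 15, 36, 4, 0, 4264 and 0 counts in Tnmd-/- cells 1, 3, 7, 9, 10 and 20 and 3918, 18, 4, 5, 4 and 0 in WT cells 1, 2, 4, 5, 10 and 14. A single cell of each genotype, Tnmd-/- cell 10 with 98.7% and WT cell 1 with 99.2% of the counts, carried nearly all of it. The pooled log2 ratio of 0.74 (0.67 to 0.80) accordingly became -5.06 without Tnmd-/- cell 10 and 7.56 without WT cell 1, and at equal weights for the cells it was -0.57. In the cell of each genotype with the most Mdm2, Dmtf1 had 2393 counts (Tnmd-/- cell 10) and 1 count (WT cell 1).

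Trp53 (ENSMUSG00000059552, chromosome 11, 69580359 to 69591873, plus strand), the gene of p53, had 143, 3, 3, 0, 1533 and 2467 counts in Tnmd-/- cells 1, 3, 7, 9, 10 and 20 and 47, 450, 2, 499, 470 and 1 in WT cells 1, 2, 4, 5, 10 and 14. It thus reached 10 counts in 3 Tnmd-/- and 4 WT cells, and the ranges overlapped. The pooled level was 118 CPM against 27.5 CPM, a log2 ratio of 2.10 (2.02 to 2.19), with 59.5% of the Tnmd-/- counts in cell 20. Without that cell the ratio was 1.11. The direction was not the same in the levels of degradation, being 2.52 in the less degraded and -0.75 in the more degraded cells. Of the 7 cells with at least 10 Dmtf1 counts, 3 also held 10 Trp53 counts, and of the other 5 cells, 4 did.

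Of the 3 inhibitors of the CIP/KIP family, which bind cyclin and kinase together, p21 dominated. Cdkn1a (ENSMUSG00000023067, chromosome 17, 29090976 to 29100727, plus strand) was the only one of the 10 genes to reach 10 counts in each of the 12 cells, as 2.10% of 10123 genes did, and it stood 30th by summed counts among the 13266 genes with any count. It gave 21160, 158, 8860, 32499, 35039 and 30942 counts in Tnmd-/- cells 1, 3, 7, 9, 10 and 20, or 3985, 105, 9925, 3145, 3400 and 4589 CPM. The WT cells 1, 2, 4, 5, 10 and 14 had 53320, 5215, 40250, 70427, 15495 and 4578 counts, or 8900, 1081, 3227, 5859, 1138 and 1014 CPM. All cells but Tnmd-/- cell 3 lay between 1014 and 9925 CPM, and the genotypes overlapped over most of this range. WT cells 2, 10 and 14 lay below every Tnmd-/- cell but cell 3. The medians over cells were 3692.5 CPM for Tnmd-/- and 2182.5 CPM for WT. Tnmd-/- cell 3, the cell with the high mitochondrial share, remained the lowest, at 218 per 1000000 of its counts on other genes, against at least 1038 in the other cells.

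The pooled Cdkn1a levels were 3667 and 3542 CPM, a log2 ratio of 0.050 (0.040 to 0.060). It was 0.12 in the less degraded and -0.07 in the more degraded cells, and between -0.25 and 0.36 with any cell left out. This near equality depended on the scaling. With DESeq2 size factors the ratio was 2.26 and with TMM factors 1.73, when 87.1% and 79.9% of the Tnmd-/- mean came from cell 7, the shallowest cell. In pooled CPM per kilobase of exon (RPKM), Cdkn1a was at 1032 for Tnmd-/- and 997 for WT, far above the other genes. In the Tnmd-/- cells Trp53 followed at 29.2, Mdm2 at 24.2, Dmtf1 at 20.7, Cdkn1b at 10.2, Ccnd2 at 5.00, Cdkn1c at 3.20 and Rb1 at 0.175. In the WT cells Ccnd2 followed at 21.5, Mdm2 at 14.5, Dmtf1 at 11.3, Trp53 at 6.80, Ccnd1 at 3.58, Cdkn1b at 0.169 and Cdkn1c at 0.147. Below Cdkn1a the order is not firm, since the lowest cell of each of these genes was under 10 CPM and their ranges over the cells overlapped.

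Cdkn1b, the gene of p27 (ENSMUSG00000003031, chromosome 6, 134920401 to 134925513, plus strand), had 80, 1072 and 481 counts in Tnmd-/- cells 3, 9 and 10 and 0 in cells 1, 7 and 20. In the WT cells it had 37 counts in cell 1 and 2 each in cells 2 and 14. The pooled levels of 46.5 and 0.767 CPM gave a log2 ratio of 5.92 (5.48 to 6.41), which ranged from 4.88 to 9.11 with a cell left out and was 1.96 within the more degraded cells. Cdkn1c, the gene of p57 (ENSMUSG00000037664, chromosome 7, 143458339 to 143461050, minus strand), had 229 counts in Tnmd-/- cell 1 and none in the others, against 2 and 14 counts in WT cells 4 and 5. Its pooled log2 ratio of 4.45 (3.72 to 5.28) came from that 1 cell and became -1.57 without it, a bound against 3 counts. Of its exon bases 30.7% are shared with the antisense gene Gm44732, which had 0 counts. Cdkn1a made up 96.8% to 100% of the counts of the 3 inhibitors in 11 cells, and 66.4% in Tnmd-/- cell 3, in which Cdkn1b gave the rest. Of the 8 genes in the list of CDK inhibitors, the INK4 genes Cdkn2b and Cdkn2c, together with Cdkn2a and Cdkn3, were at 0. The remaining INK4 gene, Cdkn2d, named after its values were seen, had 1455 counts in Tnmd-/- cell 1 and 3761 in WT cell 4, and at most 1 in any other cell.

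Both D-type cyclins among the 10 genes were lower in the pooled Tnmd-/- cells than in the pooled WT cells. Ccnd2 (ENSMUSG00000000184, chromosome 6, 127125162 to 127152193, minus strand) had 88, 110, 393, 120, 936 and 4 counts in Tnmd-/- cells 1, 3, 7, 9, 10 and 20 and 107, 14, 20, 3135, 7545 and 0 in WT cells 1, 2, 4, 5, 10 and 14. Per cell total, WT cell 10 was highest at 554 CPM, followed by Tnmd-/- cell 7 at 440 CPM and WT cell 5 at 261 CPM, and the ranges overlapped. The pooled log2 ratio was -2.11 (-2.18 to -2.03), or -0.81 without WT cell 10, and its direction turned under other settings, with 3.28 within the more degraded cells against -2.86 within the less degraded cells. By the mean of log2(CPM + 1) over cells Ccnd2 was 0.88 higher in the Tnmd-/- cells, and by DESeq2 and TMM factors the log2 ratio was 2.54 and 1.36. Ccnd1 (ENSMUSG00000070348, chromosome 7, 144929931 to 144939925, minus strand) had 901 counts in WT cell 4 and 0 in the other 11 cells, at least 197-fold lower in the pooled Tnmd-/- cells against 3 counts. It shares 23.4% of its exon bases with LTO1 on the opposite strand, which had 1920 counts in Tnmd-/- and 10 in WT cells but 0 in WT cell 4.

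Rb1 (ENSMUSG00000022105, chromosome 14, 73183673 to 73325822, minus strand), the gene of the retinoblastoma protein, had 37 counts in Tnmd-/- cell 9 and 1 count in WT cell 10, a log2 ratio of 5.82 (3.25 to 11.16). Of its exon bases 14.9% are shared with the antisense genes Lpar6, at 0 counts, and Rcbtb2, with 250 and 4 counts. Rb1 and Ccnd1 reached 10 counts in 1 cell each, as did 42.0% of the 10123 genes that reached this count anywhere, so that in single cells such a reading says little about a genotype.

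**Figure D3:**
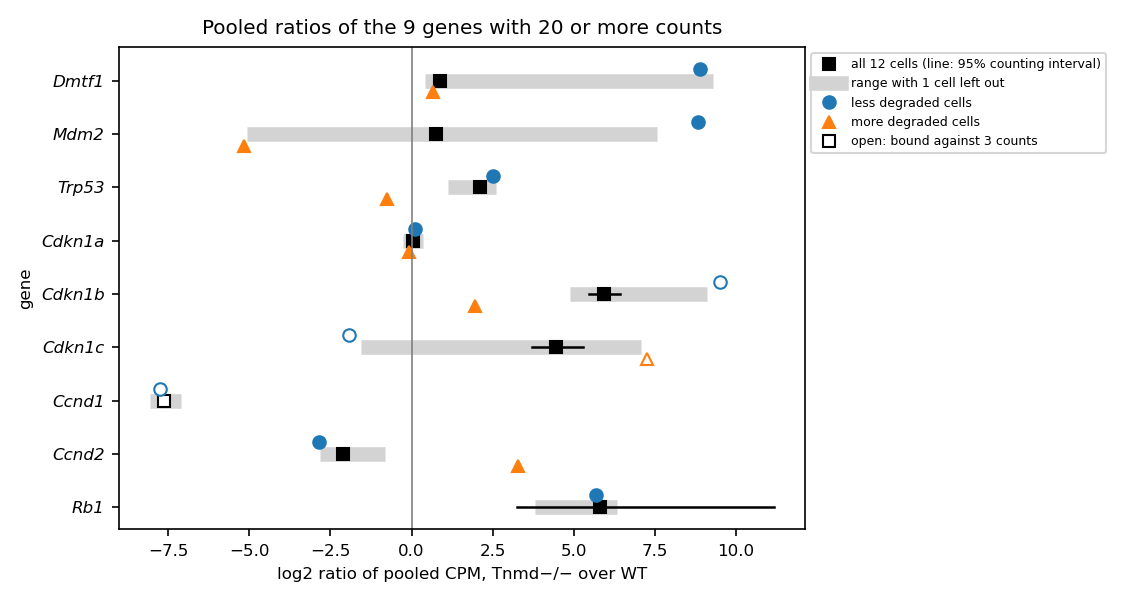
Pooled log2 ratio (Tnmd-/- over WT) of the 9 genes with at least 20 counts. Black squares with lines are all 12 cells with the counting interval, gray bars the range with 1 cell left out, blue circles the less and orange triangles the more degraded cells, and open symbols bounds against 3 counts. The bars of Mdm2 (-5.06 to 7.56) and Cdkn1c (-1.57 to 7.08) cross 0, Dmtf1 reaches 9.28 without WT cell 14, and Cdkn1a stays between -0.25 and 0.36.

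Dmtf1 was next set against the other genes within each genotype. All 6 Tnmd-/- cells held both Dmtf1 and Cdkn1a, yet so did WT cell 14, and the 5 WT cells with at most 9 Dmtf1 counts held Cdkn1a as well, at 1081 to 8900 CPM. In WT cell 14, with 1474 CPM of Dmtf1, Cdkn1a was at 1014 CPM, the lowest of the WT cells, Trp53 had 1 count, and Mdm2, Ccnd2 and Cdkn2a had 0. Thus in the WT cells high Dmtf1 did not come with higher Cdkn1a or Trp53, though this rests on a single cell. Mdm2 and Ccnd2 oppose arrest, so their 0 counts are no lack of arrest genes. Cdkn2a was at 0 in every cell of either genotype. Over the 6 Tnmd-/- cells Spearman's rho of CPM with Dmtf1 was 0.54 for Cdkn1a, 0.77 for Ccnd2, 0.52 for Mdm2, 0.20 for Trp53 and -0.64 for Cdkn1b. These values are descriptions over 6 cells that share depth, degradation and amplification. Cell 7 had the highest CPM of Dmtf1, Cdkn1a and Ccnd2 of the Tnmd-/- cells and was the shallowest cell, and without it rho was 0.20 for Cdkn1a and 0.60 for Ccnd2. Without cell 20 it was 0.90 and 0.70, so the order of these 2 genes was not firm. Over the 6 WT cells rho was -0.71 for Cdkn1a, -0.89 for Ccnd2, -0.26 for Mdm2, -0.31 for Trp53 and 0.52 for Cdkn1b, but here the ranks of 5 cells rest on 0 to 9 Dmtf1 counts. The part of depth and degradation in these values was not tested.

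Over all 12 cells the 5 genes that could be compared ranked from 624th (Cdkn1b, rho 0.14) to 1930th (Ccnd2, rho -0.20) by likeness to Dmtf1 among 3190 genes that reached 10 counts in 4 or more cells, with Cdkn1a at 1288th (-0.049), Mdm2 at 897th (0.056) and Trp53 at 1761st (-0.15). The genes most like Dmtf1 were Gm10801 (rho 0.83), Gm21738 (0.81), Tgfbi (0.78), Atxn2l (0.77) and Srpk1 (0.75). Tgfbi encodes a secreted matrix protein and Srpk1 a kinase of splicing factors. Gm10801 and Gm21738 are predicted genes. Both were highest in Tnmd-/- cells 3 and 7 and WT cell 14, which are more degraded cells. Gm10801 had 830, 1387 and 230 CPM there and at most 51.1 CPM in any other cell. Gm21738 had 827, 230 and 102 CPM there and at most 44.7 CPM in any other cell. A link to depth or degradation was not tested. Like Dmtf1, all 5 had most of their WT counts in cell 14, from 54.2% for Tgfbi to 99.0% for Srpk1. The 5 genes were picked by likeness to Dmtf1 over these same cells, so this shared trait is largely built into the choice. Srpk1 had 2513 counts in WT cell 14, at most 8 in any other WT cell, and at least 10 in 4 of the 6 Tnmd-/- cells. Cdkn1a in turn did not follow Trp53 in a steady way, with rho 0.54 for Tnmd-/- and -0.03 for WT cells, nor Mdm2, with -0.23 and 0.66.

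**Figure D4:**
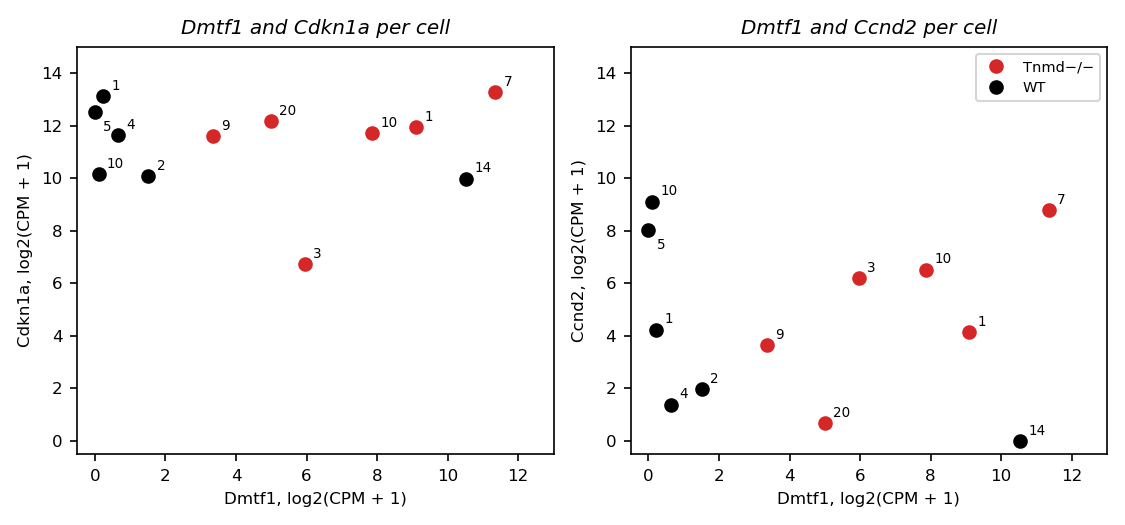
Dmtf1 against Cdkn1a (left) and Ccnd2 (right) in each cell, as log2(CPM + 1), with Tnmd-/- cells in red, WT cells in black and cell numbers beside the points. Cdkn1a spans 1081 to 8900 CPM in the WT cells with almost no Dmtf1. In the Tnmd-/- cells apart from cell 3 it spans 3145 to 9925 CPM. WT cell 14 combines high Dmtf1 with the lowest Cdkn1a of the WT cells and no Ccnd2.

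The wider pathway was described with 8 lists of genes. Over all 9768 genes with at least 20 counts, 35.5% were at least 2-fold higher and 34.9% at least 2-fold lower, with a median log2 ratio of 0.062. Of 32 p53 target genes 20 had at least 20 counts, and 7 were at least 2-fold higher in the Tnmd-/- cells, 7 lower and 6 in between, with a median log2 ratio of 0.39. Cdkn1a alone made up 83.5% of the counts of this list for Tnmd-/- and 85.0% for WT. Among the targets that reached 10 counts in at least 3 WT cells, the lowest ratios were those of the antiproliferative gene Btg2 (4 against 4065 counts, -9.38), the nuclease gene Aen (-2.77, but 1.09 within the more degraded cells) and the stress gene Gadd45a (-2.32). None of the 7 higher targets reached 10 counts in 3 Tnmd-/- cells, so none was named by this rule. The highest ratio among them, with 1 CPM added, was 7.03 for Trp53inp1, named after its values were seen. It had 3364 counts in Tnmd-/- cell 7, 1367 in cell 10 and at most 1 in any other cell. Btg2 had 1150, 1076 and 1838 counts in WT cells 4, 5 and 10, the less degraded WT cells, and at most 2 counts in any other cell of either genotype. Gadd45a had 2538, 2446 and 2437 counts in the same 3 cells, but also 820 in Tnmd-/- cell 20 and 142 in cell 1, and its ratio was 8.23 within the more degraded cells. In these 3 WT cells Dmtf1 had 7, 0 and 1 counts. WT cells 1 and 2 also had few Dmtf1 counts, 1 and 9, but at most 1 count of Btg2 and 0 of Gadd45a.

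Among 23 regulators of p53, 19 had at least 20 counts, with 10 higher, 2 lower and 7 in between and a median of 1.12. Of all 9768 genes, 35.5% were higher and 34.9% lower. Npm1, which encodes nucleophosmin, a nucleolar binding partner of Arf, was read in all 12 cells and had a pooled log2 ratio of 2.42, or 2.62 in the less degraded and 1.88 in the more degraded cells. Tnmd-/- cells 1, 9, 10 and 20 held 3166 to 5374 CPM, all WT cells 241 to 1336 CPM, and Tnmd-/- cells 3 and 7 only 40.5 and 72.8 CPM, so the ranges overlapped. Npm1 has many processed copies in the genome, which makes its counts uncertain. Trim28, a corepressor that works with Mdm2, had a ratio of 2.54, with 69.1% of its Tnmd-/- counts in cell 9. The p53 antagonist Mdm4 had -2.76, with 74.6% of its WT counts in cell 4. Another p53 antagonist, Cop1, had -1.78, with 68.4% of its WT counts in cell 5, and 6.87 within the more degraded cells.

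Regulators of the Cdkn2a locus were balanced. Of 20 genes, 16 had at least 20 counts, with 4 higher, 4 lower and 8 in between and a median of 0.31. The shares over all 9768 genes were 35.5% higher and 34.9% lower. Kdm6b, which encodes an enzyme that removes the repressive H3K27 trimethyl mark, had 2053 against 25 counts, a ratio of 6.97 with 98.2% of the counts in Tnmd-/- cell 1. Rnf2, a Polycomb subunit, had 1.16, with 91.6% in Tnmd-/- cell 10. Ezh2, the enzyme that writes the same mark, had 0 counts in the Tnmd-/- cells and 689 in 3 WT cells, a bound of -7.24, with 79.0% in WT cell 10. The 8 CDK inhibitors had 4 genes with at least 20 counts, 2 higher, none lower and 2 in between (median 1.29, or 0.027 without Tnmd-/- cell 1).

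Of 14 G1 cyclins and their kinases 11 passed, with 5 higher, 3 lower and 3 in between. Their median was 0.65, or -1.75 in the less degraded and 2.503 in the more degraded cells. For this list and those below, the shares over all 9768 genes were again 35.5% higher and 34.9% lower. Pocket proteins, E2F factors and the DREAM complex, which holds cell cycle genes silent, had the highest median, 2.88, with 8 of the 11 genes that passed higher and 3 lower. This median was -2.07 within the more degraded cells, and the list's genes reached 10 counts in a median of 1 cell. Its lower members by the rule for naming genes were Rbbp4 (-2.22) and Lin54 (-1.36). Of 25 S phase and mitosis genes 15 had no counts in any cell, and 9 had at least 20, with 3 higher, 4 lower and 2 in between and a median of -0.29. Between 0 and 4 of these 25 genes reached 10 counts in a cell of either genotype. The replication helicase gene Mcm7 had a ratio of 4.22, with 73.1% of its Tnmd-/- counts in cell 20, and of -1.76 within the more degraded cells.

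Senescence associated genes, 13 of 26 with at least 20 counts, had 3 higher, 4 lower and 6 in between and a median of 0.050. The protease inhibitor gene Serpine2 (1.67), the cytokine gene Gdf15 (1.64) and the urokinase receptor gene Plaur (1.40) had the highest ratios among those read in at least 3 cells of the higher genotype, and for Serpine2 and Gdf15 the ratio was -3.07 and -2.03 within the more degraded cells. Hmga2 (-8.89), a chromatin protein gene, and the chemokine gene Cxcl1 (-8.60) were lowest by the same rule and resembled Btg2, with 7 and 19 counts in the Tnmd-/- cells and all of the WT counts in cells 4, 5 and 10. In the more degraded cells they had at most 3 and 4 counts per cell, all in Tnmd-/- cells. Igfbp7 followed with -1.28, but had 1.18 within the more degraded cells. Apart from the CDK inhibitors, each list held genes at least 2-fold higher and genes at least 2-fold lower, and over all 9768 genes 3468 were higher, 3407 lower and 2893 in between.

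**Figure D5:**
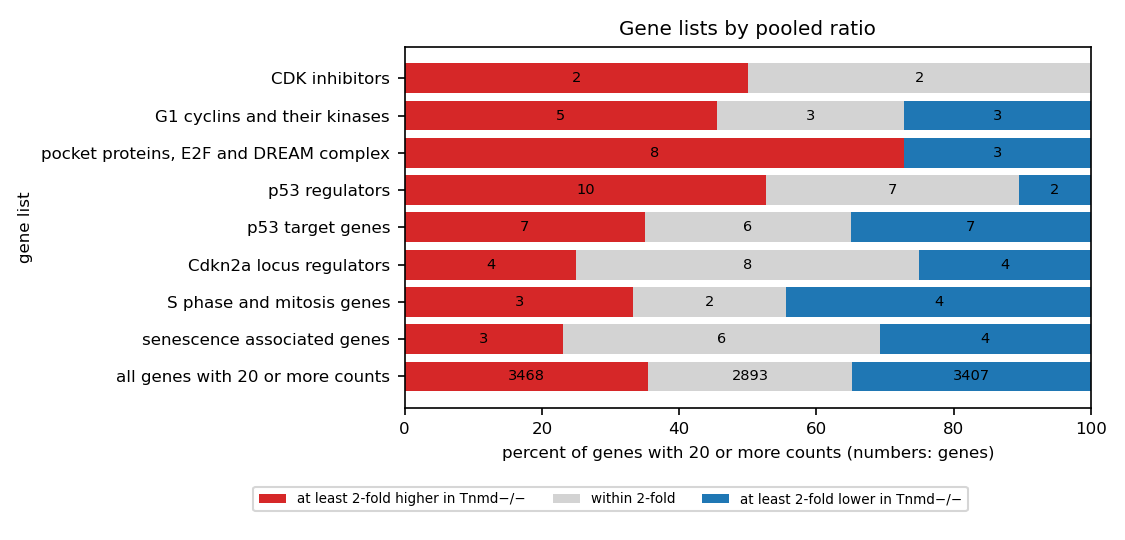
Share of the genes with at least 20 counts in each of 8 lists that were at least 2-fold higher (red), within 2-fold (gray) or at least 2-fold lower (blue) in the pooled Tnmd-/- cells, with the number of genes in each bar. The p53 targets, with 7 higher and 7 lower, resemble the bar of all genes, and the list of pocket proteins, E2F and DREAM genes has 8 higher and 3 lower.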

How the data were processed

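Raw counts per gene were deposited by the authors in a single table of 55418 genes and 12 cells. Per the study's methods, reads were trimmed, reads not exclusive to mouse were removed, the rest were aligned with STAR 2.5.1b to GRCm38 and uniquely mapped exon reads were counted with featureCounts of Subread 2.0.0. The strand of counting is not given in the sources used here. For each genotype, the 6 cells were pooled by adding their counts, and levels are given per 1000000 pooled counts (CPM). Ratios of sums carry exact Poisson or Clopper-Pearson intervals, a sum of 0 gave a bound against 3 counts, and values over many genes used those with at least 20 counts and 1 CPM added. A gene counted as read in a cell from 10 counts. Coordinates came from GENCODE M21, which held all symbols. Named were the 10 genes, Tnmd and Scx, from each list at most 3 genes per direction with the largest ratios among those with 10 counts in at least 3 cells of the higher genotype, the 5 genes most like Dmtf1, and antisense neighbours. Cdkn2d and Trp53inp1 were named after their values were seen. The genes and lists were chosen with earlier results of these data known. Alternatives were equal cell weights, mean log2(CPM + 1), DESeq2 1.42.0 and edgeR 4.0.16 TMM factors, other totals, thresholds and pseudocounts, each degradation level, each cell left out and, added after the data were seen, Tnmd-/- cells 3 and 7 left out. The pooling and its intervals were tested on simulated data. There the cells of a genotype differed only by depth and counting error. It therefore cannot show how the intervals hold where a single cell carries most of the counts.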

Additional observations from a re-analysis of the deposited data

Results flagged for a closer look

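Of 17 combinations of gene and genotype with any count, 9 had a single cell apart from the other 5 by Dixon's criterion on log2(CPM + 1), used here as a description. Its usual chance rate of about 1 in 20 does not hold for these values, since a gene with counts in 1 cell meets the criterion by construction, and Dmtf1 was chosen with its values known. The cells apart were WT cell 14 for Dmtf1 (1474 CPM), WT cell 1 for Mdm2 (654 CPM) and Cdkn1b (6.18 CPM), WT cell 4 for Ccnd1 (72.2 CPM), WT cell 5 for Cdkn1c (1.16 CPM), WT cell 10 for Rb1 (0.0735 CPM, 1 count), Tnmd-/- cell 1 for Cdkn1c (43.1 CPM) and Tnmd-/- cell 9 for Rb1 (3.58 CPM). Each of these was a high cell. The remaining case, Cdkn1a in Tnmd-/- cell 3 (105 CPM), was a low one.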

How the results depend on the processing

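The Dmtf1 ratio of 0.87 kept its direction under every alternative but not its size, with 1.24 at equal cell weights, 4.93 by the difference of mean log2(CPM + 1), 2.70 with DESeq2 and 3.17 with TMM factors, 8.87 in the less degraded and 0.67 in the more degraded cells, 0.45 without Tnmd-/- cells 3 and 7, and 0.41 to 9.28 with a cell left out. Cell 7 gave 94.0% and 94.5% of the Tnmd-/- mean with DESeq2 and TMM factors. The Mdm2 ratio of 0.74 was 8.83 within the less degraded and -5.17 within the more degraded cells, and -0.25 with TMM factors. The Trp53 ratio turned to -0.75 within the more degraded cells. The Cdkn1c ratio was -1.94 within the less degraded cells and ranged from -1.57 to 7.08 with a cell left out. The Ccnd2 ratio turned to 0.88 by mean log2(CPM + 1), 2.54 with DESeq2 factors, 1.36 with TMM factors and 3.28 within the more degraded cells. The median of the pocket protein, E2F and DREAM list was -2.07 within the more degraded cells. The number of genes at least 2-fold lower, 2, was 1 within the more degraded cells and 1 to 3 with a cell left out, and with a minimum of 1 count the median number of genes per WT cell was 6. The rank correlation of Dmtf1 with Cdkn1a in the Tnmd-/- cells was 0.37 by Pearson's r and 0.37 with DESeq2 factors, and 0.20 to 0.90 with a cell left out. The rank correlation with Ccnd2 was 0.89 with DESeq2 factors and 0.60 to 0.90 with a cell left out. The median ratio of all 9768 genes was 0.16 with DESeq2 factors against 0.062. Where not stated, the cause of a change was not tested. No paired analysis was possible because the cell numbers only name picked cells and no test was made. The main limits are that the animals behind the cells are unknown, that 6 cells stand for a genotype, and that 0 counts in a cell do not show that a gene was absent.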
